A study of Mus musculus with 32 samples.

Results

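Late 1-cell mouse embryos with a mutant maternal Dppa2 were compared with control embryos by total RNA sequencing, gene by gene. The comparison rests on 4 libraries: 2 of m-z+ embryos, in which the maternal allele is mutant and the zygotic allele intact, and 2 of m+z+ controls. All 4 were collected 12 hours after fertilization on a mixed B6/DBA background. Genes were kept where the level reached 1 FPKM (fragments per kilobase of transcript, scaled to the mapped fragments of the library) in at least 2 of the 4 libraries, which left 11217 of the 46078 genes listed. Of these, 10971 reached 1 FPKM in a library of each group, 136 passed only through both m-z+ libraries and 110 only through both controls. The series holds 32 libraries of 1-cell and 2-cell embryos and asks how loss of Dppa2 or Dppa4 affects the early transcriptome. In the same total RNA table, a Dppa4 arm of 2 m-z+ and 2 control 1-cell libraries, on a B6 background, gave a second maternal mutant at the same stage. The Dppa2 arm was also measured at 28 hours, in the late 2-cell stage, with 2 libraries per genotype. The sources used here give neither the mutant allele, nor how the maternal copy was lost, nor the number of embryos in a library. Arm and strain background go together, so they cannot be told apart.

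DPPA2 and DPPA4 are small nuclear proteins with a SAP domain that bind chromatin together in pluripotent cells and early embryos. In mouse embryonic stem cells they are known for keeping bivalent promoters accessible and for activating Dux and other genes of the 2-cell stage. At 12 hours after fertilization the RNA of a mouse embryo is still mostly the store made in the oocyte, and transcription from the new genome is only beginning. A difference between m-z+ and control embryos at this point can therefore lie in the RNA store of the oocyte or in the first embryonic transcripts, and the libraries do not separate them.

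FPKM summed to between 436254 and 471322 in the 4 compared libraries, and 10842 to 11113 genes reached 1 FPKM. With FPKM alone and no counts, sequencing depth is unknown. Across the tested genes, log2(FPKM + 1) correlated at r = 0.973 between the m-z+ libraries and at 0.977 between the controls. Between m-z+ and control libraries r lay between 0.967 and 0.974, where genes are not independent replicates. All 10 oocyte and zygote markers were present, with summed levels of 2872 and 3031 FPKM in m-z+, against 3001 and 2745 FPKM in control embryos. The 7 blood cell genes were listed at 0 in all 4 libraries, and no Y-linked gene reached the level for testing. Of 12 cumulus and granulosa markers, 4 were listed at 0 in all 4 libraries and 2 were tested, Serpine2 and Cyp19a1. The 12 markers summed to 56.1 and 58.2 FPKM in m-z+, against 53.8 and 69.1 FPKM in control embryos, which overlap.

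The targeted gene was examined first. Dppa2 (ENSMUSG00000072419, mm10, chromosome 16, 48303908 to 48319723, forward strand) stood at 9.38 and 9.52 FPKM in m-z+ embryos, against 32.3 and 32.7 FPKM in controls. Both m-z+ libraries thus lay far below both controls, and the replicates of each group were close to each other. The m-z+ mean was 29.1% of the control mean. Dppa2 fell by 1.68 on the log2(FPKM + 1) scale (SE 0.11, limma adjusted p = 0.00159). These are lysates of whole 1-cell embryos. Where a library pools embryos, fewer embryos with the RNA and less RNA in each cannot be told apart. Nor does a gene-level value separate mutant from intact transcripts.

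Dppa4, the partner gene next to Dppa2 (ENSMUSG00000058550, chromosome 16, 48283733 to 48294237), stood at 6.39 and 5.81 FPKM in m-z+ embryos and at 3.52 and 5.16 FPKM in controls. The groups did not overlap, but the log2 difference of 0.43 (SE 0.37) did not pass (limma adjusted p = 0.726). The 7 tested genes of the locus, Dppa4 included, had positive log2 differences with FPKM as deposited, with a median of 0.08, though C330027C09Rik and Dzip3 turned negative when libraries were scaled to a common sum. None had an unadjusted p under 0.05. Morc1, a gene of germ-line transposon silencing, measured 31.4 and 27.8 FPKM in m-z+, against 23.2 and 29.0 FPKM in control embryos. C330027C09Rik, a neighbour on the same chromosome, measured 61.4 and 59.0 FPKM in m-z+, against 58.5 and 61.0 FPKM in control embryos. Within 10 Mb of Dppa2 on either side, 51 genes were tested, and 2 of them (3.92%) had an unadjusted p under 0.05, against 10.1% of all genes tested. The log2 differences there ran from -1.14 for Rpl24 to 2.83 for Gm28037, which share 484 exonic bases. None of the 51 passed.

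Across all genes, 3 were higher (0.0267% of those tested) and 7 lower (0.0624%) in m-z+ embryos at a limma adjusted p under 0.05. Among them, Scarna13 and 2610044O15Rik8 were tested only through both m-z+ libraries, and Gm22973 and mmu-mir-3069 only through both controls. The filter thus let these genes in through the group where they are high. The fit held all 8 1-cell total RNA libraries as 4 groups of 2, and the p-values were adjusted over the 11217 genes. The spread of each gene was shared by the 4 groups. The median standard deviation between replicates was 0.135 and 0.133 in Dppa2 m-z+ and control libraries, against 0.107 and 0.113 in Dppa4 ones. At an unadjusted p under 0.05, 674 genes (6.01%) were higher and 459 (4.09%) lower. In limma these were 1133 genes, against 868 in a fit of the 4 compared libraries alone. Without m-z+ replicate 2 the number passing was 19, which include 8 of the 10. The median log2 difference of all tested genes was 0.02, and 132 genes differed by 1 or more on the log2 scale, 73 of them higher and 59 lower. For 4351 genes (38.8%) the m-z+ and control libraries did not overlap, so with 2 libraries a group that separation alone says little. An exact permutation test of 2 against 2 libraries cannot go below a two-sided p of 0.333. The labels do not say whether the replicates came from separate females or collections, so a p-value here measures only the spread between libraries and part of it may be technical.

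**Figure D1:**
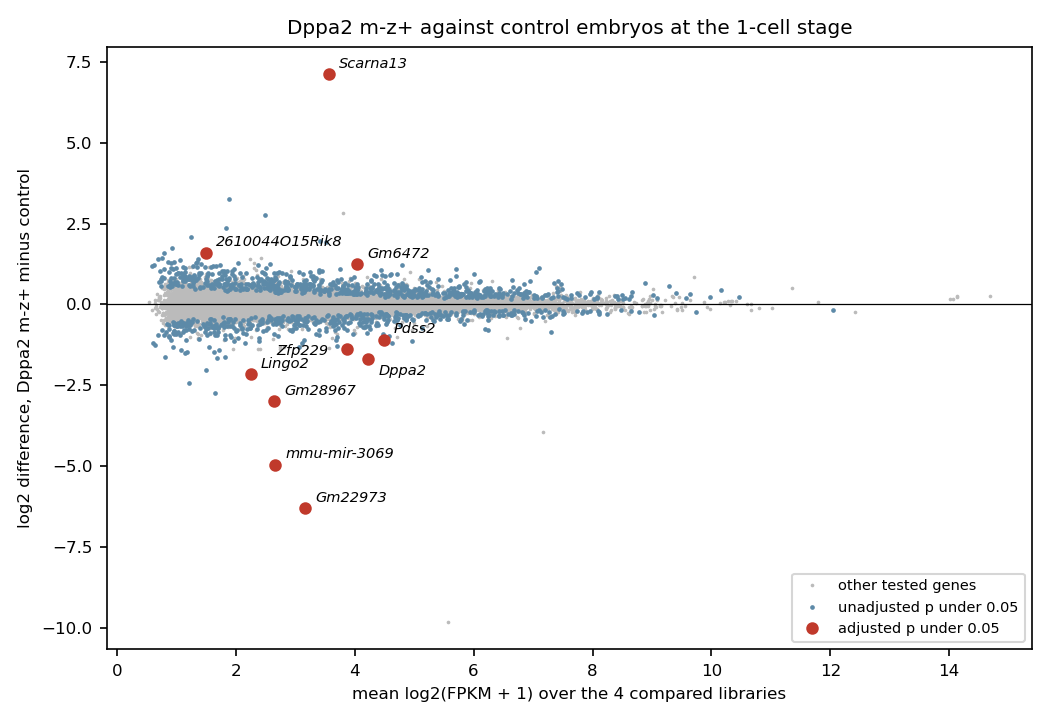
Each point is 1 tested gene. The horizontal axis gives the mean log2(FPKM + 1) over the 4 compared libraries, and the vertical axis the log2 difference of Dppa2 m-z+ minus control. Red points mark the 10 genes at a limma adjusted p under 0.05, from 7.12 for Scarna13 to -6.31 for Gm22973. The lowest grey point is AC157822.1 at -9.82, which did not pass.

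Of the 10 passing genes 5 were protein coding, with Dppa2 among them. Lingo2 encodes a transmembrane protein of neurons with leucine-rich repeats (ENSMUSG00000045083, chromosome 4, 35706647 to 36951747). It measured 1.395 and 1.126 FPKM in m-z+ embryos, against 10.7 and 7.60 FPKM in controls, and it fell by 2.15 on the log2 scale (SE 0.18, limma adjusted p = 0.00935). The m-z+ mean was 13.8% of the control mean, and the groups were far apart. In the B6 arm Lingo2 stood at 9.60 and 10.7 FPKM in Dppa4 m-z+, against 11.01 and 10.38 FPKM in Dppa4 control embryos, close to the Dppa2 controls. Lingo2 lost its call in the fit of the 4 compared libraries and with no filter on low values (limma adjusted p up to 0.171).

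Pdss2 encodes a subunit of the enzyme that makes the side chain of coenzyme Q (ENSMUSG00000038240, chromosome 10, 43221486 to 43464882). Pdss2 measured 15.2 and 13.6 FPKM in m-z+ embryos and 32.0 and 31.4 FPKM in controls. It fell by 1.09 on the log2 scale (SE 0.10, limma adjusted p = 0.00952), and the m-z+ mean was 45.4% of the control mean. The Dppa4-arm libraries held 34.1 and 35.3 FPKM in m-z+, against 28.7 and 29.5 FPKM in control embryos, all well above the Dppa2 m-z+ libraries.

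Zfp229 is named as a zinc finger protein gene (ENSMUSG00000061544, chromosome 17, 21730795 to 21769342). It measured 6.95 and 9.35 FPKM in m-z+, against 22.8 and 22.4 FPKM in control embryos, and fell by 1.38 (SE 0.15, limma adjusted p = 0.027). The 4 B6 libraries lay between 19.9 and 22.9 FPKM, at the level of the Dppa2 controls. The protein-coding gene 2610044O15Rik8 (ENSMUSG00000071302, chromosome 8, 129216354 to 129234406) was higher, at 4.35 and 3.51 FPKM in m-z+, against 0.71 and 0.533 FPKM in control embryos. It rose by 1.60 on the log2 scale (SE 0.18, limma adjusted p = 0.034), and was tested only through the m-z+ libraries, where it is high. Here the 4 B6 libraries, at 2.997 to 3.358 FPKM, lay near the m-z+ embryos and above the Dppa2 controls.

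Gm6472, a transcribed processed pseudogene on the X chromosome (ENSMUSG00000095597, 152909505 to 152910155), showed a like order of levels. It stood at 22.5 and 26.0 FPKM in m-z+, against 9.47 and 9.81 FPKM in control embryos, and rose by 1.24 (SE 0.11, limma adjusted p = 0.0101). The 4 B6 libraries held 31.9 to 36.5 FPKM. A processed pseudogene can share reads with its parent gene, so the value is uncertain. Pdss2, Zfp229, Gm6472 and 2610044O15Rik8 each lost the call when either control library was left out, and Zfp229 also without m-z+ replicate 1. Their direction stayed the same each time.

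**Figure D2:**
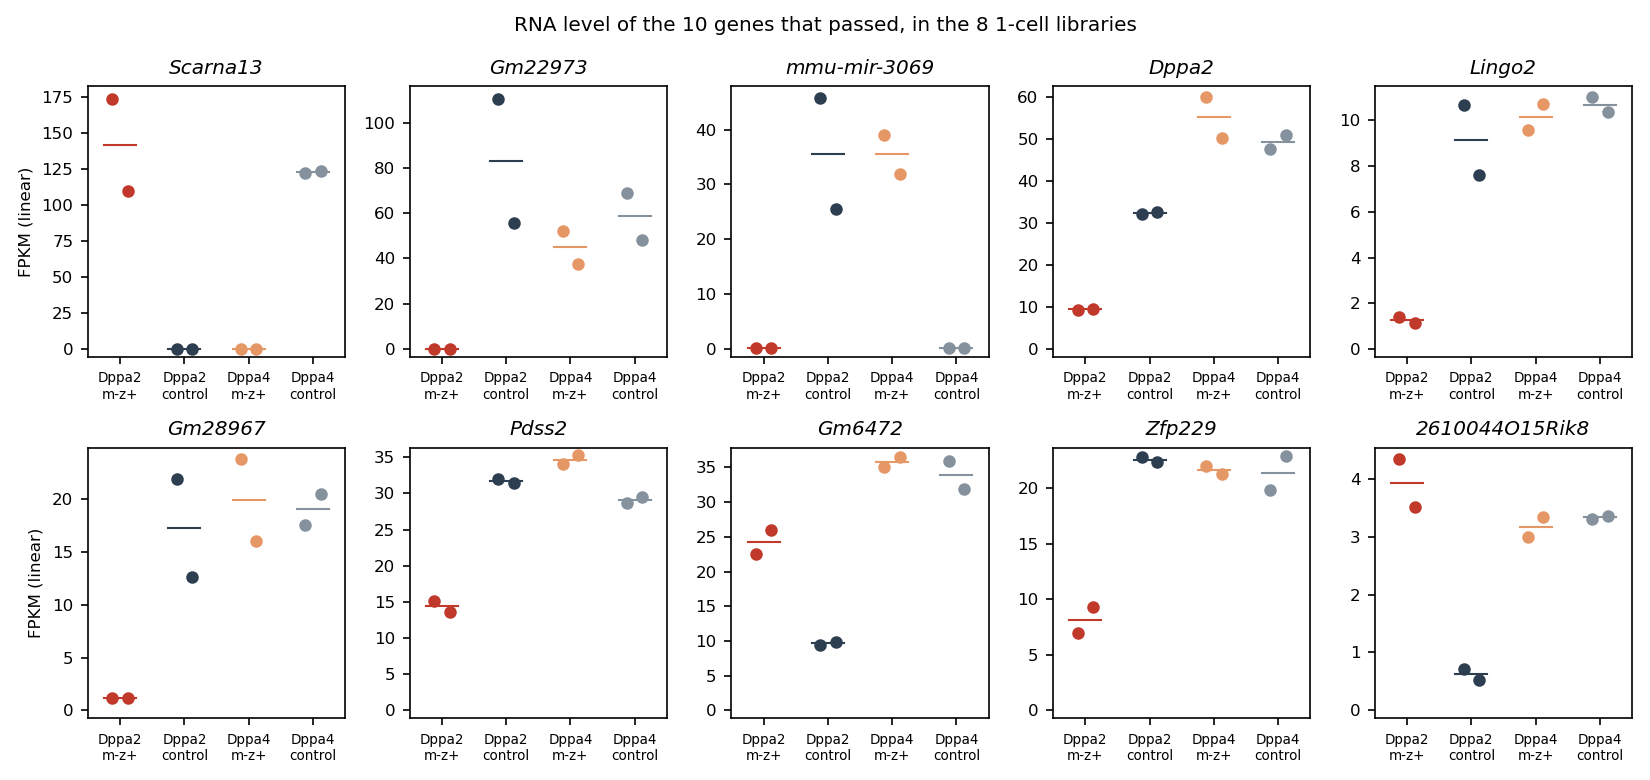
FPKM on a linear axis of the 10 passing genes in the 8 1-cell libraries, with Dppa2 m-z+, Dppa2 control, Dppa4 m-z+ and Dppa4 control embryos from left to right. Points are libraries and lines are means of 2. In every panel the 2 Dppa2 m-z+ libraries lie apart from the 2 Dppa2 controls.

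The other passing genes were models of small noncoding RNAs, and 3 of them lie on chromosome 12. Scarna13 is a small Cajal body RNA, of the class that guides the modification of spliceosomal RNAs. The hairpin of the microRNA mmu-mir-3069 lies inside it, on the same strand: its 65 bases are bases 209 to 273 of Scarna13, counted from the 5′ end. The sequences are shown because the levels of the 2 genes turned on each other. The Scarna13 sequence is from GENCODE M21 (mm10), chr12:105031075-105031349, reverse strand, with the mir-3069 hairpin in capitals. The mature microRNAs are from RefSeq (GRCm38.p6), with the seed, bases 2 to 8, in capitals.
Scarna13: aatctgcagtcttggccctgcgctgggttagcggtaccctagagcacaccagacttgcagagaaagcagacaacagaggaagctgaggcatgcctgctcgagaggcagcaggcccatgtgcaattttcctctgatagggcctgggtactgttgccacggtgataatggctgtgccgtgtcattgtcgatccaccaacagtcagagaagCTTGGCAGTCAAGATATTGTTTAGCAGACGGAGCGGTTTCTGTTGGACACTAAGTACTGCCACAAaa
mmu-miR-3069-5p: uUGGCAGUcaagauauuguuuagc
mmu-miR-3069-3p: uUGGACACuaaguacugccaca

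Scarna13 (ENSMUSG00000088789) was listed at 174 and 109.6 FPKM in m-z+ embryos and at 0 in both controls. The mmu-mir-3069 gene (ENSMUSG00000106366) was listed at 0.126 and 0.135 FPKM in m-z+ embryos and at 45.7 and 25.4 FPKM in controls. Scarna13 rose by 7.12 (SE 0.21, limma adjusted p = 1.43e-05) and mmu-mir-3069 fell by 4.96 (SE 0.26, limma adjusted p = 0.000445) on the log2(FPKM + 1) scale, where values next to 0 depend on the pseudocount.

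In all 16 total RNA libraries, 1 of this pair was high and the other near 0. In 8 libraries Scarna13 stood at 76.4 to 284 FPKM with mmu-mir-3069 at most 0.207 FPKM. In the other 8 Scarna13 was listed at 0 with mmu-mir-3069 at 25.4 to 103 FPKM. The pair was the other way round in the Dppa4 arm, with Scarna13 at 0 in both m-z+ libraries and at 122 and 124 FPKM in both controls. At the 2-cell stage replicates of 1 group could differ, with Scarna13 at 76.4 and 0 FPKM in the Dppa2 m-z+ libraries and at 0 in both controls. Reads from the shared bases can be given to either gene, and how they were divided was not tested. With all 16 total RNA libraries in the fit neither gene passed (limma adjusted p = 1 for both).

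**Figure D3:**
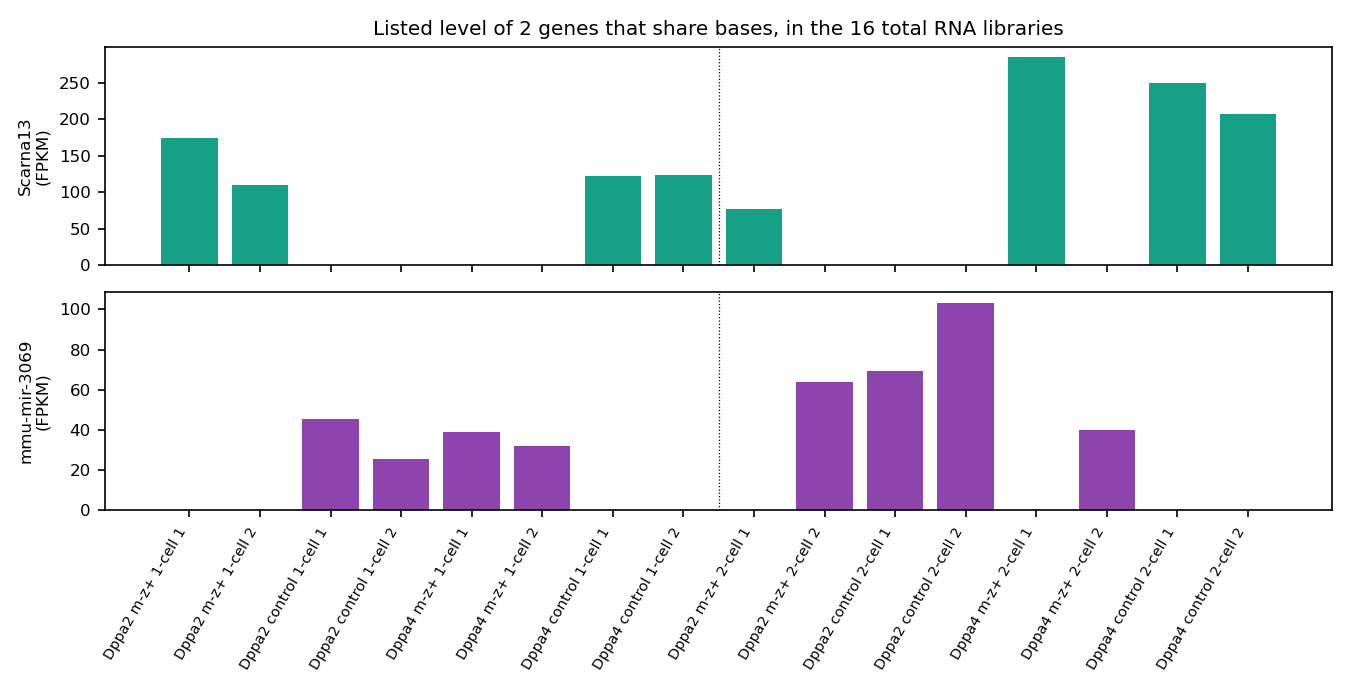
Listed FPKM of Scarna13 (top) and mmu-mir-3069 (bottom), linear axes, in the 16 total RNA libraries, with 1-cell libraries left of the dotted line and 2-cell libraries right of it. Each library has a bar in only 1 of the 2 panels that rises above 1 FPKM.

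A microRNA model on chromosome 12, AC157822.1, also switched between libraries and is named here after its values were seen. Of its 80 bases 77 lie in Rn7s2, a gene for the RNA of the signal recognition particle. AC157822.1 was listed at 1.23 and 0.107 FPKM in m-z+ embryos and at 1402 and 1440 FPKM in controls, and its log2 difference was -9.82 (SE 4.54), which did not pass (limma adjusted p = 0.556). In the Dppa4 arm 1 replicate of each genotype was high, at 951 FPKM in m-z+ embryos and at 937 FPKM in controls, and the other was under 1 FPKM. Rn7s2 measured 20523 and 18821 FPKM in Dppa2 m-z+, against 16141 and 16718 FPKM in Dppa2 control embryos, far above the gene inside it.

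Gm22973, a small nuclear RNA gene on chromosome 12, is 1 of 13 genes whose sequences are at least 90% identical to it. The group contains Rnu2-10, a gene for the U2 RNA of the spliceosome. Gm22973 differs from Gm26316, the most similar of them, at 8 of 191 bases, which decide whether a read can be told apart. Both sequences are from GENCODE M21 (mm10), forward strand, with the 8 differing bases in capitals: Gm22973 lies at chr12:59040335-59040525 and Gm26316 at chr11:101604850-101605040.
Gm22973: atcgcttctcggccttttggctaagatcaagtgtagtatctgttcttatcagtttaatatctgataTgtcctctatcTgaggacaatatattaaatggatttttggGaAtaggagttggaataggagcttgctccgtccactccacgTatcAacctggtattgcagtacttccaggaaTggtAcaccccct
Gm26316: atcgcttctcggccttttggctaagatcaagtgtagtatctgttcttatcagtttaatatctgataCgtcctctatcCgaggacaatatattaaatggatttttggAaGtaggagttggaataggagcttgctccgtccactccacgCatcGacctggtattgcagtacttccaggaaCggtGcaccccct

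Gm22973 (ENSMUSG00000065232) had a value of 0 in each m-z+ library and of 110.6 and 55.7 FPKM in controls, a fall of 6.31 on the log2(FPKM + 1) scale (SE 0.32, limma adjusted p = 0.000445). The B6 libraries held 52.3 and 37.4 FPKM in Dppa4 m-z+, against 69.0 and 48.2 FPKM in Dppa4 control embryos. At the 2-cell stage it was low again in the Dppa2 arm, at 28.0 and 5.36 FPKM in m-z+, against 250 and 352 FPKM in control embryos. In 1-cell embryos the sum of the other 12 genes, of which Gm25202 was listed at 0 throughout, stood in the opposite order, at 1174 and 836 FPKM in m-z+, against 710 and 513 FPKM in control embryos. In 2-cell embryos that sum was 239 and 1811 FPKM in m-z+, against 1326 and 2525 FPKM in control embryos, which overlap. Gm22973 kept its call under all 12 alternatives that tested it. Leaving out either control library was not among them, since that took it below the filter.

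Gm28967 (ENSMUSG00000099587, chromosome 6, 125186361 to 125186641, reverse strand) is annotated as sense intronic, and all of its 281 bases lie inside the small RNA gene Scarna10. It measured 1.21 and 1.20 FPKM in m-z+, against 22.0 and 12.6 FPKM in control embryos, and fell by 3.005 (SE 0.27, limma adjusted p = 0.00952). Scarna10 measured 12.0 and 15.7 FPKM in m-z+, against 3.61 and 0 FPKM in control embryos, a log2 difference of 2.78 that did not pass (limma adjusted p = 0.30). The 2 genes thus ran in opposite directions over the same bases. Gm28967 also shares 235 exonic bases with Ncapd2. Its level switched between libraries in 2-cell embryos, with 75.5 and 2.55 FPKM in Dppa2 m-z+ replicates and 89.2 and 105.8 FPKM in Dppa2 controls. The 2-cell Dppa4 libraries held 52.1 and 55.7 FPKM in m-z+, against 4.23 and 1.61 FPKM in control embryos. How reads were divided between these genes was not tested. Among the genes with a known position that differed by 1 or more on the log2 scale, 45.3% shared exonic bases with another listed gene, against 31.2% of all tested genes with a known position. Gm28967 lost its call without m-z+ replicate 1, with no filter, in the fit of the 4 compared libraries and in that of all 16.

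Beyond the passing genes, the next 10 higher and 10 lower genes were those with the smallest p among genes averaging 5 FPKM or more in a group, with non-overlapping groups and a log2 difference of at least 0.6. None of them passed, and their limma adjusted p lay between 0.0673 and 0.233. Entpd1, an ectonucleotidase gene, measured 25.5 and 17.7 FPKM in m-z+, against 5.17 and 4.52 FPKM in control embryos (log2 difference 1.93, SE 0.25, limma adjusted p = 0.0673). Knstrn, which encodes a protein of the spindle and kinetochore, measured 221 and 186 FPKM in m-z+, against 109.1 and 76.6 FPKM in control embryos (log2 difference 1.14, SE 0.16). Pxdn, the peroxidasin gene, measured 7.28 and 6.95 FPKM in m-z+, against 0.00683 and 1.43 FPKM in control embryos.

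The other 7 higher genes had smaller differences or uncertain reads. Mocs2, of molybdenum cofactor synthesis, measured 17.4 and 19.97 FPKM in m-z+, against 7.05 and 9.62 FPKM in control embryos. Epn2, an endocytic adaptor gene, measured 199.9 and 209 FPKM in m-z+, against 124 and 134 FPKM in control embryos. Rgsl1, Rapgef4 and 4921506M07Rik had log2 differences of 0.99, 0.82 and 0.77. Gm26444, a small nuclear RNA gene with the same sequence as 6 others, had a log2 difference of 0.96. Gm20605 measured 16.4 and 6.57 FPKM in m-z+, against 0.0353 and 0.381 FPKM in control embryos, while Lrch4, which shares 3029 exonic bases with it, measured 13.5 and 19.1 FPKM in m-z+, against 30.2 and 34.7 FPKM in control embryos.

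Among the 10 lower genes, Adam17, a gene for a protease that sheds cell-surface proteins, measured 27.6 and 24.6 FPKM in m-z+, against 44.2 and 44.3 FPKM in control embryos (log2 difference -0.74, SE 0.10, limma adjusted p = 0.0689). Its 4 B6 libraries, at 21.9 to 24.7 FPKM, lay near the m-z+ embryos. Nedd9, a scaffold gene of focal adhesions, measured 7.37 and 9.15 FPKM in m-z+, against 17.8 and 16.9 FPKM in control embryos. Cpeb3, which encodes a protein that binds cytoplasmic polyadenylation elements in stored RNA, measured 10.7 and 14.7 FPKM in m-z+, against 22.9 and 24.9 FPKM in control embryos (log2 difference -0.88, SE 0.15, limma adjusted p = 0.174). Esr2, the estrogen receptor beta gene, measured 9.83 and 10.1 FPKM in m-z+, against 18.2 and 16.01 FPKM in control embryos. Cdon, a gene for a Hedgehog co-receptor, measured 2.75 and 2.39 FPKM in m-z+, against 7.49 and 6.08 FPKM in control embryos. The remaining 5, Gm7104, Gm9788, Gm14272, Rnasek and Slc31a2, had log2 differences from -2.75 to -0.80.

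Gene lists were then described by the number of members at an unadjusted p under 0.05, to be read against 6.01% higher and 4.09% lower of all genes. No member of any list passed the adjusted test. Of 73 ribosomal protein genes 16 were higher, 2 were lower, and 62 had a positive log2 difference. Their median of 0.21 was the highest among the lists of nuclear protein-coding genes. Rpl35 measured 98.4 and 106 FPKM in m-z+, against 68.6 and 74.2 FPKM in control embryos (log2 difference 0.51, SE 0.08, limma adjusted p = 0.156). Rps15 had the highest difference among members averaging 5 FPKM or more, at 22.5 and 17.9 FPKM in m-z+, against 9.56 and 12.2 FPKM in control embryos. Rpl24 had the lowest, at 18.4 and 21.7 FPKM in m-z+, against 45.9 and 44.4 FPKM in control embryos. Gm28037 shares 484 exonic bases with Rpl24 and stood in the opposite order, at 39.6 and 33.0 FPKM in m-z+, against 3.94 and 4.50 FPKM in control embryos.

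Summed over the list, ribosomal protein genes came to 2603 and 2556 FPKM in m-z+ embryos and 2316 and 2210 FPKM in controls, which do not overlap. The Dppa4 arm held 2071 and 2011 FPKM in m-z+, against 2013 and 1959 FPKM in control embryos, and its list median was 0.04. Ribosome biogenesis genes showed 11 of 53 higher and none lower, with a median of 0.16. Among them Dkc1, the pseudouridine synthase of box H/ACA particles, measured 98.1 and 78.6 FPKM in m-z+, against 74.8 and 51.6 FPKM in control embryos. Of 36 proteasome genes 8 were higher and none lower, with a median of 0.16. Psma4, a subunit of the catalytic core, measured 138 and 122 FPKM in m-z+, against 98.4 and 104 FPKM in control embryos. Between the same groups, the summed level of structural noncoding RNAs was 47180 and 43784 FPKM in m-z+, against 39609 and 40892 FPKM in control embryos, with 2 of 11 genes higher, 1 lower and a median of 0.23. The 13 mitochondrially encoded genes summed to 17120 and 15334 FPKM in m-z+, against 17431 and 15253 FPKM in controls, which overlap, with a median of 0.00. The part of library composition in these list medians was not tested.

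Lists of the oocyte's own RNA lay near the median of all genes. Of 16 genes of the subcortical maternal complex and the oocyte Nlrp family, 1 was higher and 3 were lower, with a median of 0.03. Nlrp5, also called Mater, a core member of the complex, measured 279 and 295 FPKM in m-z+, against 254 and 192 FPKM in control embryos. Nlrp9c measured 128 and 123 FPKM in m-z+, against 172 and 156 FPKM in control embryos (log2 difference -0.38, SE 0.09, limma adjusted p = 0.312). Among 10 zona pellucida and oocyte-secreted genes 1 was higher and 2 were lower, with a median of -0.03. Of the oocyte markers Nlrp5 was higher and Oosp1, an oocyte-secreted protein gene, was lower, at 445 and 498 FPKM in m-z+, against 556 and 616 FPKM in control embryos. RNA storage genes had 1 lower of 20, Cpeb3, and a median of -0.02. Genes of maternal mRNA decay had 1 higher of 26, the deadenylase gene Parn, and a median of -0.10.

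**Figure D4:**
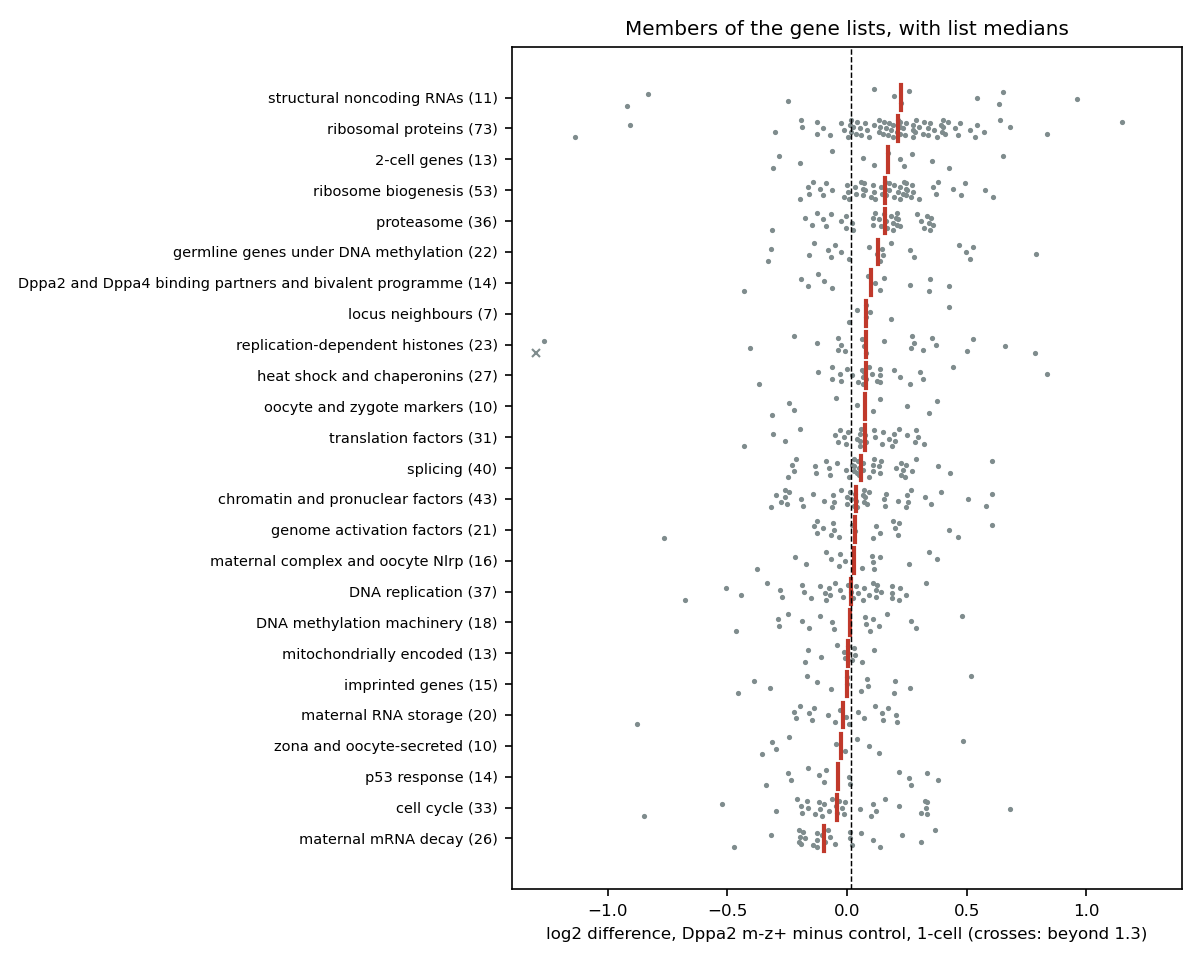
Log2 difference of Dppa2 m-z+ minus control for each tested member (grey points) of the lists with at least 5 tested members, with the list median in red, the number tested in brackets and the median of all genes as a dashed line. Ribosomal protein, ribosome biogenesis and proteasome genes lie to the right, with medians of 0.21, 0.16 and 0.16.

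Genes of the embryo's first transcription were mostly below the level for testing. Of 36 listed genes known from the 2-cell stage 13 were tested, 1 was higher and none was lower, with a median of 0.17. The higher one was Sp110, at 201 and 190.4 FPKM in m-z+, against 177 and 155 FPKM in control embryos. Sp110 was lower in 2-cell embryos, with 32.05 and 43.09 FPKM in Dppa2 m-z+ libraries and 32.66 and 32.54 FPKM in Dppa2 controls. Whether its 1-cell RNA was stored in the oocyte or newly transcribed was not tested. The Dux copy Duxf3 measured 4.28 and 2.62 FPKM in m-z+, against 3.48 and 5.35 FPKM in control embryos, which overlap. Zscan4d measured 3.54 and 3.27 FPKM in m-z+, against 1.48 and 2.16 FPKM in control embryos (log2 difference 0.65, SE 0.44), and Zfp352 measured 3.43 and 1.79 FPKM in m-z+, against 1.70 and 1.79 FPKM in control embryos. Neither had an unadjusted p under 0.05. Zscan4d and Duxf3 belong to multigene families, so reads can be shared between copies. Of 4 Obox genes none was at an unadjusted p under 0.05, and their median was -0.02. Of 21 genome activation factors none was higher and 1 was lower, Nfya, a subunit of a CCAAT-binding factor. Nfya measured 43.2 and 69.9 FPKM in m-z+, against 76.5 and 116 FPKM in control embryos (log2 difference -0.76, SE 0.28, limma adjusted p = 0.415).

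Chromatin genes had a median near that of all genes. Of 43 chromatin and pronuclear factors 5 were higher and 1 was lower, with a median of 0.04. Smarcc1, a BAF complex subunit gene, measured 18.997 and 13.5 FPKM in m-z+, against 12.9 and 8.30 FPKM in control embryos (log2 difference 0.58, SE 0.22). Atrx, a chromatin remodeller gene, measured 79.2 and 90.7 FPKM in m-z+, against 102 and 106 FPKM in control embryos. Of 18 genes of the DNA methylation machinery 1 was higher and 1 lower, with a median of 0.01. Among 22 germline genes silenced by DNA methylation 2 were higher and 1 was lower, with a median of 0.13. Of 14 entries for binding partners and bivalent programme genes 1 was higher, the SUMO ligase gene Pias4, with a median of 0.10. Srcap is listed under 2 of these entries, which share exonic bases and had log2 differences of 0.34 (SE 0.22) and -0.43 (SE 0.38). Imprinted genes had none at an unadjusted p under 0.05 among 15 tested, and a median of 0.00.

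The remaining lists gave few genes in either direction. Heat shock and chaperonin genes had 3 higher of 27, among them Cct5 and Hspe1, and none lower. Hsp90aa1 measured 1397 and 896 FPKM in m-z+, against 428 and 917 FPKM in control embryos, so its replicates differed as much as its groups. Cell cycle genes had 2 higher and 2 lower of 33, DNA replication genes 1 lower of 37, splicing genes 2 higher of 40 and translation factors 2 higher and 1 lower of 31. Of 14 p53 response genes 1 was lower, Trp53inp1. Of 23 replication-dependent histone genes 1 was higher. Hist2h2aa1 in that list was at 687 and 0.947 FPKM in m-z+, against 573 and 565 FPKM in control embryos, so that 1 m-z+ library stood apart. Of 8 sperm transcripts 4 were listed at 0 in all 4 libraries and 2 were tested. One of those, the protamine gene Prm2, measured 9.75 and 6.64 FPKM in m-z+, against 8.57 and 13.8 FPKM in control embryos, which overlap.

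By type of RNA, small nuclear RNA genes stood apart from the protein-coding genes. Of 52 tested, 25 were higher and 1, Gm22973, was lower at an unadjusted p under 0.05, with a median of 0.61. Of 9702 protein-coding genes 519 were higher and 406 lower, with a median of 0.01. Small nuclear RNA summed to 2288 and 1683 FPKM in m-z+ embryos and 1588 and 1104 FPKM in controls. In both groups replicate 1 held more than replicate 2, and the lower m-z+ library lay just above the higher control. Many of these genes are near-identical copies that share reads and are no independent measurements: 19 genes at least 90% identical to Gm26444, a U1 copy, summed to 715 and 525 FPKM in m-z+, against 444 and 317 FPKM in control embryos. The order was the opposite in the Dppa4 arm, where small nuclear RNA summed to 666 and 613 FPKM in m-z+, against 1081 and 864 FPKM in control embryos, with a median of -0.52. Small nucleolar RNA genes had 13 higher and 1 lower of 122, with a median of 0.32 and -0.32 in the Dppa2 and Dppa4 arms. In the Dppa2 arm at the 2-cell stage both medians were negative, at -1.42 for small nuclear and -1.22 for small nucleolar RNA genes. The copies of Gm26444 then summed to 182 and 1066 FPKM in m-z+, against 1011 and 1863 FPKM in control embryos. Gm22973 and its copies summed to 267 and 1816 FPKM in m-z+, against 1576 and 2876 FPKM in control embryos. In both families m-z+ replicate 1 lay far below the controls and replicate 2 within their range. The part of these RNA classes in the other results was not tested.

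By position, the differences were not spread evenly over the chromosomes. On chromosome 12, 69 of 413 tested genes (16.7%) had an unadjusted p under 0.05, and on chromosome 19 it was 59 of 358 (16.5%), against 10.1% of all genes. In the Dppa4 arm the share was 4.36% on chromosome 12 and 2.79% on chromosome 19, against 4.57% of all genes. Both arms were tested with a shared spread per gene, on which the size of their shares depends. In the Dppa2 arm at the 2-cell stage chromosome 12 stood at 14.5% and chromosome 19 at 13.1%, against 12.4% of all genes. Of the 47 genes with an unadjusted p under 0.001 (0.419%) in the 1-cell comparison, 15 (31.9%) lie on chromosome 12, which holds 3.68% of the tested genes. They included Scarna13, Gm22973, mmu-mir-3069, Adam17, Pxdn, Esr2, Nrcam and Tex21, with 7 higher and 8 lower. Of the 15, 8 are protein coding. Scarna13 and mmu-mir-3069 share bases, so they are no independent measurements. Among protein-coding genes alone, 50 of 354 (14.1%) on chromosome 12 had an unadjusted p under 0.05, against 925 of 9702 (9.53%) on all chromosomes.

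**Figure D5:**
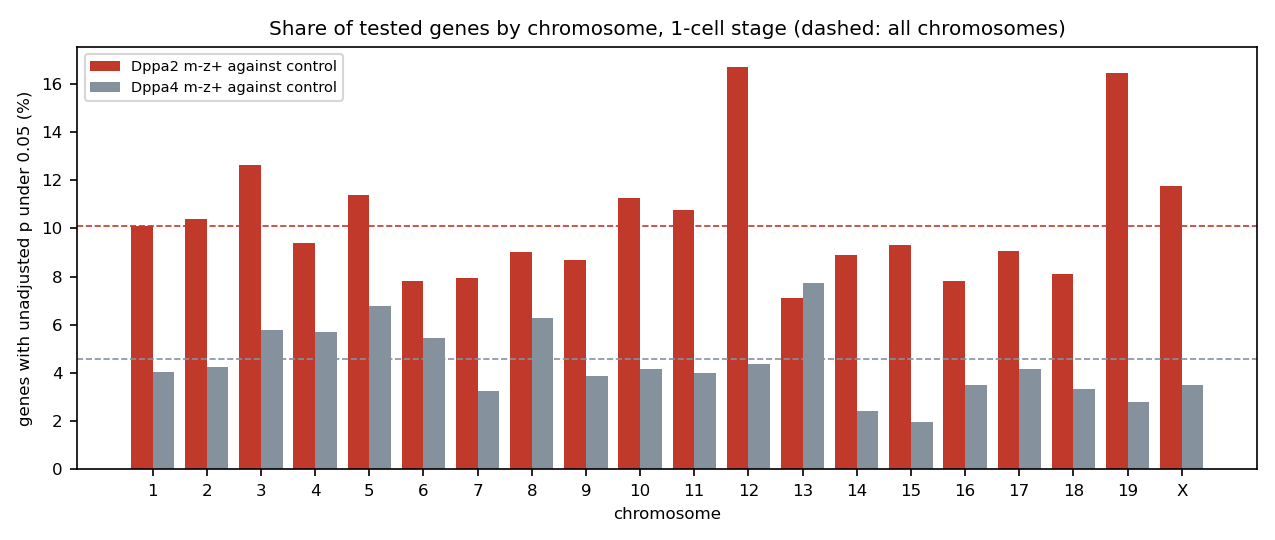
Percent of tested genes on each chromosome with an unadjusted p under 0.05 at the 1-cell stage, for Dppa2 m-z+ against control (red) and Dppa4 m-z+ against control (grey). Dashed lines give the share over all chromosomes, 10.1% and 4.57%. Both arms were tested with a shared spread per gene. Chromosomes 12 and 19 reach 16.7% and 16.5% in the Dppa2 arm.

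Within chromosome 12 these genes were not in 1 place. In windows of 10 Mb chosen after the values were seen, the share at an unadjusted p under 0.05 was 43.5% (10 of 23 genes) from 20 to 30 Mb, 31.2% (15 of 48) from 50 to 60 Mb and 22.4% (11 of 49) from 100 to 110 Mb. It was 3.57% from 30 to 40 Mb and 3.70% from 110 to 120 Mb. The window from 50 to 60 Mb holds a cluster of U1 genes, Gm26444 among them. No sequence variant was measured here. The Dppa2 arm is of mixed background, and whether its m-z+ and control embryos carried the same strain's alleles on these chromosomes was not tested.

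The effect of the maternal Dppa2 mutation was then set against that of the maternal Dppa4 mutation in the same fit. The difference of the 2 effects passed for 6 of the 11217 genes (0.0535%), 1 of them positive and 5 negative. Dppa2 had a difference of -1.83 (SE 0.16, limma adjusted p = 0.00841), with 60.2 and 50.4 FPKM in Dppa4 m-z+, against 47.7 and 51.1 FPKM in Dppa4 control embryos. For Pdss2 it was -1.33 (SE 0.14, limma adjusted p = 0.0308), with the Dppa4-arm values given above. Gm22973, Scarna13 and mmu-mir-3069 passed as well. The sixth was Mir8092, a microRNA model that shares 85 exonic bases with Zfp518a, at 0.167 and 0.654 FPKM in Dppa2 m-z+, against 4.641 and 4.799 FPKM in Dppa2 control embryos. The Dppa4 arm showed the opposite order, with 6.11 and 11.8 FPKM in m-z+ embryos, against 0.15 and 0.126 FPKM in controls. Mir8092 was tested only through both Dppa2 controls, where it is high. Lingo2, Zfp229, Gm6472 and 2610044O15Rik8 did not pass this test, with limma adjusted p between 0.0838 and 0.165. Without control replicate 1 only 1 gene passed and without control replicate 2 only 2, against 10 without m-z+ replicate 2.

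The same difference was taken between the stages of the Dppa2 arm, 1-cell minus 2-cell, and 6 genes passed (0.0535%), 1 positive and 5 negative. The spread of each gene was shared over both stages, which is a limit. The median standard deviation between replicates was 0.241 and 0.233 in 2-cell m-z+ and control libraries, against 0.135 and 0.133 in 1-cell ones. At 28 hours Dppa2 stood at 44.8 and 59.2 FPKM in m-z+, against 49.69 and 52.96 FPKM in control embryos, and the difference of effects was -1.69 (SE 0.22, limma adjusted p = 0.0404). Lingo2 stood at 1.92 and 5.04 FPKM in m-z+, against 1.26 and 1.83 FPKM in control embryos at 28 hours, a difference of effects of -2.88 (SE 0.43, limma adjusted p = 0.0411). The Dppa2 controls at 28 hours were thus as low in Lingo2 as the m-z+ embryos at the 1-cell stage. In the Dppa4 arm at 28 hours Lingo2 stood at 11.7 and 10.8 FPKM in m-z+, against 9.45 and 9.87 FPKM in control embryos. Pdss2 stood at 4.93 and 6.05 FPKM in m-z+, against 1.58 and 3.36 FPKM in control embryos at that stage, a difference of -2.04 (SE 0.32, limma adjusted p = 0.0495). Lingo2 and Pdss2 were thus lower in both m-z+ libraries at the 1-cell stage and higher in both at the 2-cell stage, where neither passed (limma adjusted p = 0.344 and 0.149). The other 3 were Mir8092, the pseudogene Gm37904 and the small nucleolar RNA gene Gm24095, named after their values were seen. Each of these was tested only through the 1-cell group where it is high. Without 1-cell control replicate 1 or replicate 2 limma called 0 genes, with 808 and 638 at an unadjusted p under 0.05, and 1 and 4 passed without m-z+ replicate 1 and 2. With median-ratio scaling 4 passed, all negative.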

How the data were processed

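Per the labels, RNA was taken from lysed embryos and made into reverse-stranded total RNA libraries. Per the submitters' processing notes, the authors used HISAT2 2.1.0, the mm10 build and StringTie 1.3.3b, and deposited FPKM per gene; their annotation and filters are not known here. No per-sample column was left unused and no 2 libraries were identical. Gene positions came from GENCODE M21 (98.2% of listed IDs). Deposited FPKM were turned into log2(FPKM + 1), which understates the change of low genes, and genes at 1 FPKM in at least 2 of the 4 compared libraries were tested. Groups were compared with limma 3.58.1 (R 4.3.3, statmod 1.5.0; trend and robust options) and Benjamini-Hochberg adjustment over all tested genes, at an adjusted p under 0.05. One fit held the 8 1-cell libraries and gave the comparison and its difference from the Dppa4 arm. Another, of all 16 total RNA libraries, gave the difference between stages. The scripts were tested on simulated data.

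Named genes were Dppa2 and Dppa4, all that passed, the next 10 per direction by p, the highest and lowest member of each list averaging 5 FPKM or more, the locus neighbours, and those that differed between arms. Other list members were named after their values were seen. The comparison, its genes and the 30 lists were chosen with earlier results of these data known. Alternatives were another pseudocount (0.1), filter, scaling, limma setting, fit, replicate block, and leaving out each library. Further ones, without genes that share exonic bases and without chromosome 12, were chosen after seeing the data.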

Additional observations from a re-analysis of the deposited data

Results flagged for a closer look

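The effect of the maternal mutation differed between the Dppa2 and Dppa4 arms at the 1-cell stage for 6 genes, by a test of the difference itself (limma adjusted p under 0.05 over all tested genes). The difference of the log2 effects, Dppa2 minus Dppa4, was -1.83 for Dppa2, -1.33 for Pdss2, -5.94 for Gm22973, -5.11 for Mir8092, -10.00 for mmu-mir-3069 and 14.07 for Scarna13. The arms also differ in strain background, which cannot be told apart from the mutation. Scarna13 was tested only through both Dppa2 m-z+ libraries, where it is high. Gm22973, mmu-mir-3069 and Mir8092 were tested only through both Dppa2 controls, where they are high. Scarna13 and mmu-mir-3069 share bases, and in all 16 total RNA libraries 1 of them was high and the other near 0. How reads were divided between them was not tested.

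The effect of the maternal Dppa2 mutation differed between the 1-cell and the 2-cell stage for 6 genes as well, by the same kind of test. The difference, 1-cell minus 2-cell, was -1.69 for Dppa2, -2.88 for Lingo2, -2.04 for Pdss2, -3.41 for Mir8092, -1.85 for Gm37904 and 2.34 for Gm24095. Gm37904 measured 0.224 and 0.329 FPKM in m-z+ 1-cell embryos, against 1.88 and 1.65 FPKM in controls. Gm24095 measured 1.35 FPKM in both m-z+ 1-cell libraries and was listed at 0 in both controls. The filter let in Gm24095 only through both m-z+ 1-cell libraries. It let in Gm37904 and Mir8092 only through both 1-cell controls. Each thus entered the test through the group where it is high. Groups of 2 libraries were too small to look for single libraries far from the rest of their group.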

How the results depend on the processing

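Of the 10 genes that passed, Dppa2 did so under all 15 alternatives. Gm22973 did so under the 12 that tested it. Leaving out either control library took Gm22973 below the filter, so those alternatives could not test it. None of the 10 changed sign. The number passing was 4 with no filter (26013 genes tested), 6 in the fit of all 16 total RNA libraries (3 shared with the 10) and 7 to 19 when 1 library was left out. In the fit of the 4 compared libraries it was 7, of which only 4 were shared with the 10: Dppa2, Scarna13, mmu-mir-3069 and Gm22973. Elsewhere it lay between 7 and 14. The difference between arms, 6 genes, gave 2 with no filter, 3 in the fit of 16 libraries and 1 to 10 with 1 library left out. The difference between stages, also 6, gave 2 with a pseudocount of 0.1, 41 with no filter, 1 with a mean of at least 5 FPKM and 0 to 4 with 1 library left out. Scaling to a common sum put its median over all genes at -0.17, against 0.00 as deposited. Over genes as a whole, same-numbered m-z+ and control libraries hardly deviated together (r = 0.0191 for the Dppa2 and 0.0968 for the Dppa4 libraries). The main fit did not read the numbers as pairs, and whether the libraries were collected in pairs is not known. Single genes went either way. Dnmt3a followed the number, at 77.9 and 33.1 FPKM in m-z+, against 79.6 and 35.4 FPKM in control embryos. Cpeb1 ran against it, at 24.9 and 68.0 FPKM in m-z+, against 63.9 and 27.7 FPKM in control embryos. With the replicate number as a block, 9 genes passed in the comparison (6 shared), 5 between arms and 0 between stages in limma, where 959 had an unadjusted p under 0.05. The cause of these changes was not tested.

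With 1 library left out, the log2 difference of these genes, none of which passed, changed sign over the range given: Obox2 (-0.46 to 0.0016), Dcp1a (-0.96 to 0.018), Hist2h2aa1 (-8.19 to 0.27), Etf1 (-0.94 to 0.076), the Srcap entry with the negative difference (-1.05 to 0.19), Pola1 (-1.10 to 0.21), mt-Nd3 (-0.44 to 0.087), Serpine2 (-0.27 to 0.027), Nop58 (-0.51 to 0.12), Myh15 (-0.034 to 0.23), Pvrl3 (-0.095 to 0.26), Bbx (-0.12 to 0.29), Dzip3 (-0.074 to 0.15), Cyp19a1 (-0.31 to 0.40) and C330027C09Rik (-0.020 to 0.040). Scaling to a common sum turned Dzip3 to -0.022, Cyp19a1 to -0.010 and C330027C09Rik to -0.054, and median-ratio scaling turned C330027C09Rik to -0.018. Of 1299 values of 91 named genes under alternatives, 1230 kept direction and side of the threshold, 34 were no longer past it, 13 came past it and 22 changed sign. Of 373 medians of 25 lists, 57 moved beyond the spread between replicates. Groups of 2 libraries and an unknown depth limit what can be called, above all for genes near 1 FPKM.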
